A study of Mus musculus with 21 samples.

Results

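Chemokines are small secreted or membrane-held proteins that guide leukocytes, and their receptors are G protein-coupled receptors on the surface of the responding cells. The gene set was taken by name: every protein-coding gene whose symbol begins with Ccl, Cxcl or Cx3c and is numbered as a family member, together with Xcl1, Xcr1 and the numbered Ccr and Cxcr receptors. The rule gave 55 of the 45777 genes in the tables, which were 23 CC ligands, 14 CXC, CX3C and XC ligands and 18 receptors. CC ligands mostly act on monocytes, macrophages, eosinophils and T cells, and CXC ligands on neutrophils, T cells and B cells. Some are made at rest and keep tissue-resident and lymphoid cells in place, while others are induced by interferon, TNF or NF-kB. In the thyroid, chemokines such as Cxcl9, Cxcl10 and Cxcl13 are best known from autoimmune disease, in which leukocytes enter the gland.

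RNA was sequenced from thyroid glands of C57BL/6J mice in 7 groups of 3 libraries. At 1 week the groups were TSH, which received pLIVE vectors carrying TSHB and CGA, the subunits of thyrotropin, TSH-MMI, which received the same vectors and the antithyroid drug thiamazole (methimazole, MMI), and Empty, which received the pLIVE vector without insert. At 4 weeks a further group, Empty-MMI, received the empty vector with MMI. The pLIVE vector is made for expression in the liver, and neither Tshb nor Cga had a read in any of the 21 thyroid libraries. Every group, Empty included, was given a vector. Neither age nor sex is stated in the sources used here. Nothing in the labels says whether the libraries of a group are separate animals, so the p-values speak only for the spread among these samples, which may be technical.

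Promoter sequences are shown for Cxcl10 and Cxcl9, neighbouring genes on chromosome 5 whose products both act on the receptor Cxcr3, because Cxcl10 rose in TSH at 4 weeks while Cxcl9 passed no test. Both are RefSeq windows on GRCm38.p6, from 250 bases before to 50 bases after the gene start, on the minus strand, printed 5′ to 3′. Capitals mark GAAA, any pair of bases and GAAA again, the core of an interferon-stimulated response element (ISRE), searched on both strands like the other motifs.
Cxcl10, chr5:92348840-92349139: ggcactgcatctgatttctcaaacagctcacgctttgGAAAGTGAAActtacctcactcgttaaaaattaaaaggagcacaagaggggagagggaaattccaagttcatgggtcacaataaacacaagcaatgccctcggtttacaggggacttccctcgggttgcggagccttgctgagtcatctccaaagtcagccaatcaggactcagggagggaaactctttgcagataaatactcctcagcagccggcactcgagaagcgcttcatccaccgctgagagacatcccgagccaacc
Cxcl9, chr5:92328030-92328329: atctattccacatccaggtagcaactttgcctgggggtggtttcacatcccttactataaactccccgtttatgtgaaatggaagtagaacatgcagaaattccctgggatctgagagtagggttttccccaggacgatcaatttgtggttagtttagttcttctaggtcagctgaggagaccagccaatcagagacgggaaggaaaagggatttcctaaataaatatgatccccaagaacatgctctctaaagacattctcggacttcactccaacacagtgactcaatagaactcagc
The ISRE letters began 213 bases before the start of Cxcl10 and did not occur on either strand of the Cxcl9 window. Among 32851 promoter windows 3.44% held them, and among the 41 member genes with a window those of Cxcl10, Ccl19 and Cxcl14 did. The NF-kB letters, GGG, any pair of bases and TTTCC, held by 1.63% of all windows, occurred in 6 member genes, Ccl9, Ccl20, Ccr3, Cxcl1, Cxcl2 and Cxcl3, of which only Ccl9 had enough reads to be tested. The cyclic AMP response element TGACGTCA, a palindrome, at 1.79% of windows, occurred in none of the 41, and the interferon-gamma activated site TTCNNNGAA, at 8.30% of windows, in Ccl17, Ccr6 and Cxcl14. A match to these letters describes the window and does not show binding. Only these exact letters were searched, so a window without a match may still hold a site of other letters.

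Levels are given first for the Empty glands. By FPKM, a length-normalised level that can be compared between genes, the highest member in Empty glands was Cxcl12, which holds progenitor and immune cells through Cxcr4, at 78.4, 69.2 and 75.6 FPKM at 1 week and 72.6, 72.6 and 68.8 FPKM at 4 weeks. Cxcl13, the B cell attractant that acts on Cxcr5, was next at 46.8, 48.9 and 45.6 FPKM at 1 week and 60.3, 45.4 and 70.9 FPKM at 4 weeks. Cxcl12 lay above Cxcl13 in every Empty library except 1 of 4 weeks, where Cxcl13 was just above it. The membrane-anchored ligands followed, Cx3cl1 (fractalkine) with a mean of 30.7 FPKM over the 6 Empty libraries and Cxcl16 with 21.4 FPKM, their ranges meeting only at the edge. Then came Ccl21a at 14.5, the eosinophil attractant Ccl11 at 7.05, Ccl25 at 6.44, Cxcl14 at 5.64, the receptor Cx3cr1 at 4.68 and Ccl27a at 4.16 FPKM. The Ccl25 mean rested on 1 library, with 1.18, 0.603 and 30.9 FPKM at 1 week and 3.92, 1.04 and 0.993 FPKM at 4 weeks. From Ccl11 to Ccl27a the neighbours in this order overlapped between libraries.

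**Figure D1:**
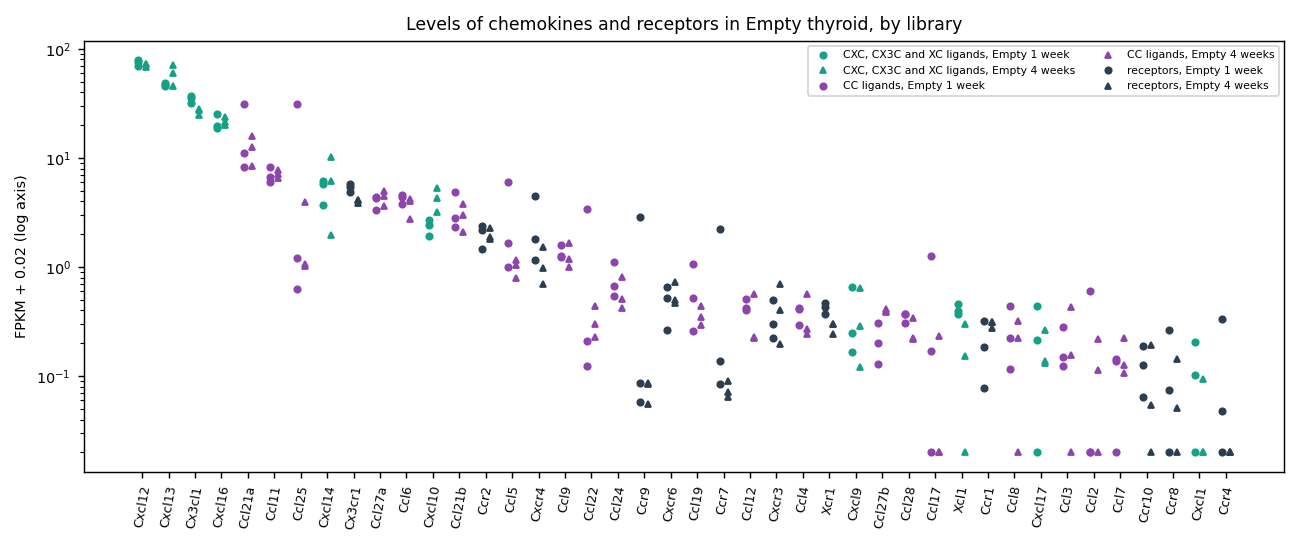
Levels of 42 members with a mean of at least 0.05 FPKM in the Empty libraries, on a log axis after adding 0.02, circles for 1 week and triangles for 4 weeks, coloured by role. Cxcl12, Cxcl13, Cx3cl1 and Cxcl16 lead, and Ccl25, Ccr9, Ccr7 and Ccl22 each have 1 library at 1 week far above the rest.

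Cx3cr1, the fractalkine receptor of resident macrophages, was the highest receptor. Ccr2, which brings in monocytes, followed with a mean of 1.98 FPKM and Cxcr4 with 1.75 FPKM. Ligands that draw neutrophils, and their receptors, were at or near the floor: Cxcl3 and Cxcr1 had no read in any library, and Cxcl1, Cxcl2, Cxcl5 and Cxcr2 had at most 14, 5, 3 and 6 reads in a library. A count of 0 allows up to 3 reads per library. Ccl20 and Ccl26 also had no read, and 29 members had a read in every library. Enough reads for a test were present for 36 members at 1 week, 37 at 4 weeks and 38 with both weeks together. The other members, tested in neither week, reached at most 36 reads, and no difference was detectable for them at this depth.

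Libraries totalled 32244842 to 51886245 reads, and some held RNA of neighbouring tissue. Empty replicate 3 at 1 week had a summed level of immature thymocyte markers of 238 CPM (TMM-normalised counts scaled to a common library size), against 4.30 to 4.48 CPM in the other Empty libraries of that week. TSH-MMI replicate 2 at 1 week had 31.5 CPM. Thymic epithelium markers summed to 181 CPM in Empty replicate 3. Skeletal muscle markers summed to 6.31 to 1629 CPM in TSH, 8.92 to 577 CPM in TSH-MMI and 69.4 to 373 CPM in Empty-MMI at 4 weeks, against 4242 to 12724 CPM in Empty. Defining thyroid follicular cell genes were high in every library, and their summed level lay between 167957 and 326522 CPM.

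The thymus library set the apparent levels of the lymphoid members. In Empty replicate 3 at 1 week, 9 of the 31 members with over 20 reads there were above each of the other 20 libraries: Ccl5, Ccl19, Ccl21a, Ccl22, Ccl25, Ccr4, Ccr7, Ccr9 and Cxcr4. Ccl25, the thymic and gut ligand of Ccr9, was at 1.5, 0.848 and 34.9 CPM in the 3 Empty libraries, and at 0.829 to 4.85 CPM over the remaining libraries of the series. Ccr9 was at 0.211, 0.333 and 13.1 CPM in Empty at 1 week. It reached 1.89 CPM in TSH-MMI replicate 2, the other library with thymocyte transcripts, and stayed at or below 0.398 CPM elsewhere. Ccr7, the lymph node homing receptor, was at 0.158, 0.273 and 4.66 CPM. None of Ccl25, Ccr9, Ccr7 and Ccl22 passed edgeR's test in any comparison, though Ccr7 was called lower in TSH at 1 week with a muscle score as covariate (adjusted p = 0.0250), and their large negative fold changes at 1 week rest on this library.

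**Figure D2:**
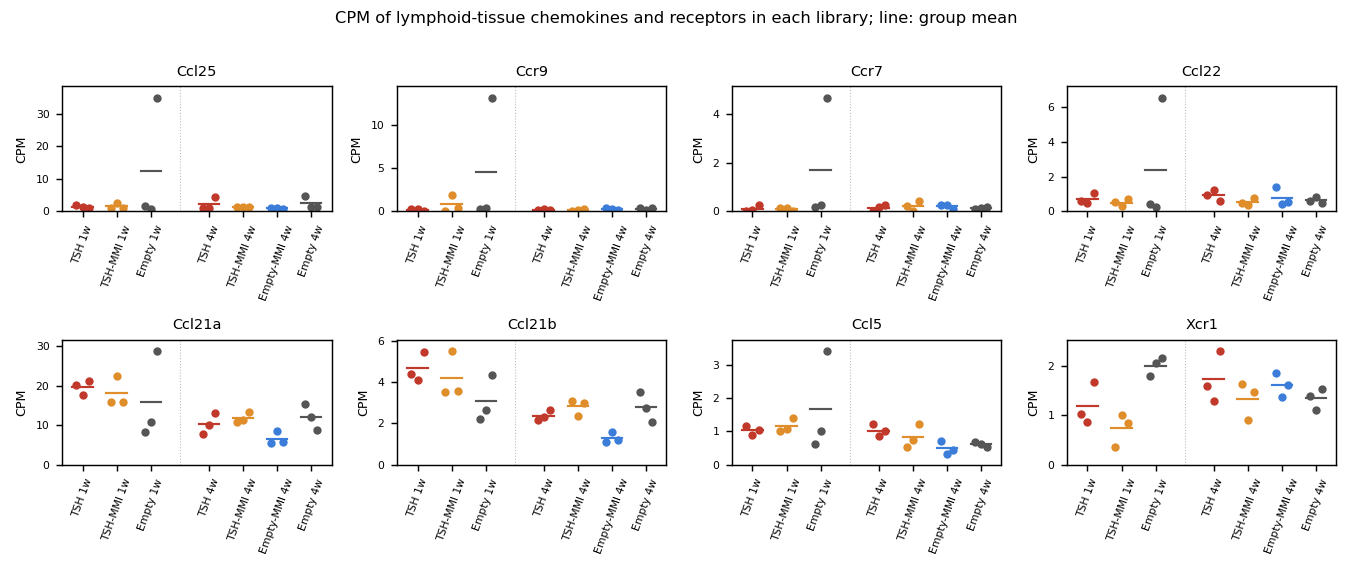
CPM of 8 members tied to lymphoid tissue or dendritic cells in each library, coloured by group, with a line at the group mean. Empty replicate 3 at 1 week stands far above the other libraries for Ccl25 (34.9 CPM), Ccr9 (13.1 CPM), Ccr7 (4.66 CPM) and Ccl22 (6.53 CPM).

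Against Empty, members higher in TSH at both times included Cx3cl1 and its receptor Cx3cr1, Cxcl16, Cxcl17, Ccl6 and Ccl9, while Cxcl13 and Ccl11 were lower at both times. Counts were tested with edgeR's quasi-likelihood test, and a gene was called at a Benjamini-Hochberg adjusted p under 0.05 over all genes tested that week. At 1 week 10 of 36 tested members were higher in TSH, where 14.8% of all 16956 genes were called higher, and 2 were lower, where 9.34% of all genes were. The members' median log2 fold change was 0.23, against -0.0047 over all genes. Without TSH replicate 1, 4 members were called lower, Cxcl12 and Cxcl14 joining. In TSH-MMI at 1 week 7 members were higher (13.6% of all genes) and 4 lower (7.97%). Leaving out TSH-MMI replicate 3 left 4 higher. At 4 weeks 9 of 37 tested members were higher in TSH (8.52% of 17355 genes) and 3 lower (5.61%), with a median of 0.36 against -0.03 over all genes. In TSH-MMI at 4 weeks 7 were higher (8.77%) and 3 lower (5.97%). Of the tested members, 27.8% were thus higher in TSH at 1 week and 24.3% at 4 weeks, and for TSH-MMI the shares were 19.4% and 18.9%, above the share of all genes each time. Lower calls took 5.56% and 8.11% of them for TSH, and 11.1% and 8.11% for TSH-MMI, near the share of all genes. The members were not tested as a set.

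The 1-week and 4-week comparisons use separate Empty libraries, so calls can be counted across them. In TSH, 7 members were higher at both times, which is 70% of the 1-week and 77.8% of the 4-week calls (38.3% and 65.1% over all genes called higher), among them Ccl6, Ccl9, Cx3cl1, Cx3cr1, Cxcl16 and Cxcl17. Cxcl13 and Ccl11 were lower at both times. In TSH-MMI, 5 were higher at both times, which is 71.4% of the calls of each week (46.6% and 70.6% over all genes), among them Ccl6, Ccl9, Cx3cr1 and Cxcl17, and the same 2 genes were lower. TSH and TSH-MMI share their Empty libraries within a week, so their likeness is not independent.

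Among receptors, Cx3cr1 (chromosome 9, 120048683 to 120068296) was at 47.4, 53.6 and 58.7 CPM in TSH and 49.2, 50.1 and 58.5 CPM in TSH-MMI at 1 week, against 20.5, 22.9 and 23.3 CPM in Empty. It was, at 4 weeks, at 48.0, 41.6 and 46.0 CPM in TSH, 47.7, 31.7 and 39.4 CPM in TSH-MMI, 23.0, 22.0 and 19.9 CPM in Empty-MMI and 16.3, 16.9 and 18.5 CPM in Empty. Every library that received the TSH vectors lay above every library that did not. The fitted log2 fold change in TSH was 1.26 ± 0.10 (SE, edgeR adjusted p = 9.77e-06) at 1 week and 1.39 ± 0.13 (adjusted p = 4.42e-05) at 4 weeks. In TSH-MMI it was 1.24 ± 0.10 (adjusted p = 1.82e-05) and 1.2 ± 0.13 (adjusted p = 9.38e-05).

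Ccr1, a receptor of myeloid cells for Ccl3, Ccl6 and Ccl9 among others, was at 2.09, 1.55 and 2.44 CPM in TSH and 1.55, 1.12 and 1.94 CPM in TSH-MMI at 1 week, against 0.211, 0.545 and 0.926 CPM in Empty. The groups were apart at 1 week, and the Empty libraries themselves spread widely. Ccr1 rose in TSH by 1.85 ± 0.43 on the log2 scale (edgeR adjusted p = 0.00952) and in TSH-MMI by 1.45 ± 0.43 (adjusted p = 0.0348). The call in TSH-MMI was lost without Empty replicate 1 or 2 or TSH-MMI replicate 1 or 3 (adjusted p = 0.0864, 0.0853, 0.0768 and 0.128). At 4 weeks Ccr1 was at 0.672, 1.63 and 0.693 CPM in TSH, against 0.934, 0.922 and 0.894 CPM in Empty. The TSH libraries then lay on both sides of Empty. TSH-MMI did too, at 1.44, 0.765 and 1.3 CPM.

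Cxcr4, the receptor of Cxcl12 on many leukocytes and on endothelium, was at 6.60, 4.13 and 6.48 CPM in TSH and 3.81, 2.78 and 3.62 CPM in TSH-MMI at 4 weeks, against 3.07, 1.39 and 2.14 CPM in Empty. The TSH libraries lay above the Empty libraries, while TSH-MMI overlapped them. On the log2 scale the fold change was 1.38 ± 0.26 (edgeR adjusted p = 0.00366) in TSH and 0.63 ± 0.26 (adjusted p = 0.130) in TSH-MMI. Without Empty replicate 1 Cxcr4 was called in TSH-MMI too (0.95, adjusted p = 0.0291). At 1 week Cxcr4 was at 3.59, 4.49 and 2.42 CPM in TSH, against 2.40, 3.67 and 8.57 CPM in Empty, where the highest value is the library with thymocyte transcripts. Ccr2 was not called by edgeR in any comparison, with 14, 8.06 and 14 CPM in TSH and 12.2, 14.7 and 15.2 CPM in TSH-MMI against 8.96, 9.76 and 5.58 CPM in Empty at 1 week. The TSH-MMI libraries lay above Empty (0.79 ± 0.25 on the log2 scale, edgeR adjusted p = 0.0511). That difference was called by DESeq2 (adjusted p = 0.00640), limma with a pseudocount of 1 or 0.1 (0.0205 and 0.0217) and edgeR with only the compared groups (0.0254). Without TSH replicate 2 edgeR called Ccr2 in TSH at 1 week (0.0261), and without TSH-MMI replicate 2 in TSH-MMI at 4 weeks (0.00531). Xcr1, the receptor of cross-presenting dendritic cells, was at 0.362, 1.00 and 0.846 CPM in TSH-MMI against 1.79, 2.06 and 2.17 CPM in Empty at 1 week. These libraries did not overlap, and Xcr1 fell in TSH-MMI by 1.44 on the log2 scale (SE 0.37, edgeR adjusted p = 0.0178). In TSH it was at 1.03, 0.874 and 1.68 CPM, which did not pass the test (adjusted p = 0.161).

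Among CC ligands, Ccl6 and Ccl9 are neighbouring genes of chromosome 11 (83587886 to 83593087 and 83572917 to 83578636) that myeloid cells make in mouse. Ccl6 was at 11.3, 9.39 and 14.6 CPM in TSH and 10.4, 9.31 and 10.1 CPM in TSH-MMI at 1 week, against 6.19, 7.09 and 7.01 CPM in Empty. In the 4-week libraries it was at 12.1, 9.83 and 11.5 CPM in TSH and 11.1, 9.21 and 11.8 CPM in TSH-MMI, against 6.72, 6.35 and 4.84 CPM in Empty. The libraries with TSH vectors lay above Empty at both times. Ccl6 rose in TSH by 0.80 ± 0.15 on the log2 scale (edgeR adjusted p = 0.00295) at 1 week and 0.90 ± 0.20 (adjusted p = 0.00840) at 4 weeks. In TSH-MMI the change was 0.56 ± 0.15 (adjusted p = 0.0230) and 0.84 ± 0.20 (adjusted p = 0.0110). The 1-week call in TSH-MMI was lost without Empty replicate 1 or TSH-MMI replicate 1 or 3 (adjusted p = 0.0924, 0.0712 and 0.0742).

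Ccl9 was at 8.08, 8.61 and 9.01 CPM in TSH and 8.04, 6.82 and 7.94 CPM in TSH-MMI at 1 week, against 4.16, 5.39 and 3.99 CPM in Empty. At 4 weeks it was at 9.41, 7.68 and 8.86 CPM in TSH and 10.6, 8.98 and 7.98 CPM in TSH-MMI, against 5.55, 3.30 and 4.27 CPM in Empty. Again no library with TSH vectors fell into the Empty range. Its log2 fold change in TSH was 0.92 ± 0.14 (edgeR adjusted p = 0.000886) and 0.98 ± 0.21 (adjusted p = 0.00716), and in TSH-MMI 0.75 ± 0.14 (adjusted p = 0.00399) and 1.07 ± 0.21 (adjusted p = 0.00386), at 1 and 4 weeks in that order.

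Ccl8 and Ccl11 lie in 1 cluster of chromosome 11 with Ccl1, Ccl2, Ccl7 and Ccl12, and moved in opposite directions at 1 week. Ccl8, which in mouse acts on Ccr8, was at 1.06, 0.774 and 0.909 CPM in TSH and 0.773, 0.821 and 0.921 CPM in TSH-MMI, against 0.264, 0.121 and 0.0529 CPM in Empty. The groups were far apart at a low level. Ccl8 rose by 2.61 ± 0.48 on the log2 scale in TSH (edgeR adjusted p = 0.00235) and by 2.49 ± 0.48 in TSH-MMI (adjusted p = 0.00397). Without Empty replicate 1 the log2 fold changes were 3.36 and 3.24. At 4 weeks Ccl8 was at 0.448, 0.113 and 0.387 CPM in TSH and 0.621, 0.283 and 0.509 CPM in TSH-MMI, against 0.122, 0 and 0.199 CPM in Empty, and was not called. Ccl11 was at 4.85, 3.47 and 4.91 CPM in TSH and 3.14, 3.24 and 4.18 CPM in TSH-MMI at 1 week, against 8.22, 10.1 and 6.82 CPM in Empty. At 4 weeks this gene was at 3.65, 3.82 and 5.50 CPM in TSH, 3.59, 3.06 and 4.74 CPM in TSH-MMI, 7.98, 7.51 and 10.1 CPM in Empty-MMI and 9.24, 8.38 and 8.59 CPM in Empty. Every library with TSH vectors was below every library without them. Ccl11 fell in TSH by 0.92 (SE 0.20, edgeR adjusted p = 0.00533) at 1 week and by 1.01 (SE 0.19, adjusted p = 0.00379) at 4 weeks on the log2 scale. In TSH-MMI it fell by 1.25 (SE 0.20, adjusted p = 0.00133) and by 1.2 (SE 0.19, adjusted p = 0.00122).

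Ccl4, an inflammatory attractant of macrophages and T cells, was at 0.722, 0.524 and 1.23 CPM in TSH against 0.316, 0.303 and 0.212 CPM in Empty at 1 week. The libraries did not overlap and the counts were low. The fitted log2 fold change was 1.58 ± 0.48 (edgeR adjusted p = 0.0326). The call was lost without TSH replicate 1 or 3 (adjusted p = 0.0514 and 0.168) or Empty replicate 1, 2 or 3 (0.0760, 0.0685 and 0.0858), or the pair with thymocyte transcripts (0.0969), with the replicate number as a block (0.0527) and with the muscle covariate described below (0.0708). Ccl2, Ccl7 and Ccl12, the monocyte attractants of the chromosome 11 cluster, were not called by edgeR in any comparison. Ccl2 was at 0.480, 0.520 and 0.489 CPM in TSH against 0.183, 0 and 0.0994 CPM in Empty at 4 weeks. These groups were apart, and Ccl2 was called higher there by DESeq2 (2.41 on the log2 scale, adjusted p = 0.0195), by limma with a pseudocount of 1 or 0.1 (0.0367 and 0.0157), with the replicate number as a block (0.0398) and without Empty replicate 1 (0.0381). In TSH-MMI at 4 weeks limma with a pseudocount of 0.1 called it (adjusted p = 0.0328). Without Empty replicate 2 edgeR called Ccl2 at 1 week in TSH and TSH-MMI (adjusted p = 0.00431 and 0.00982). Fewer cells of a type and less RNA per cell cannot be told apart in these bulk samples, for these or any other members.

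**Figure D3:**
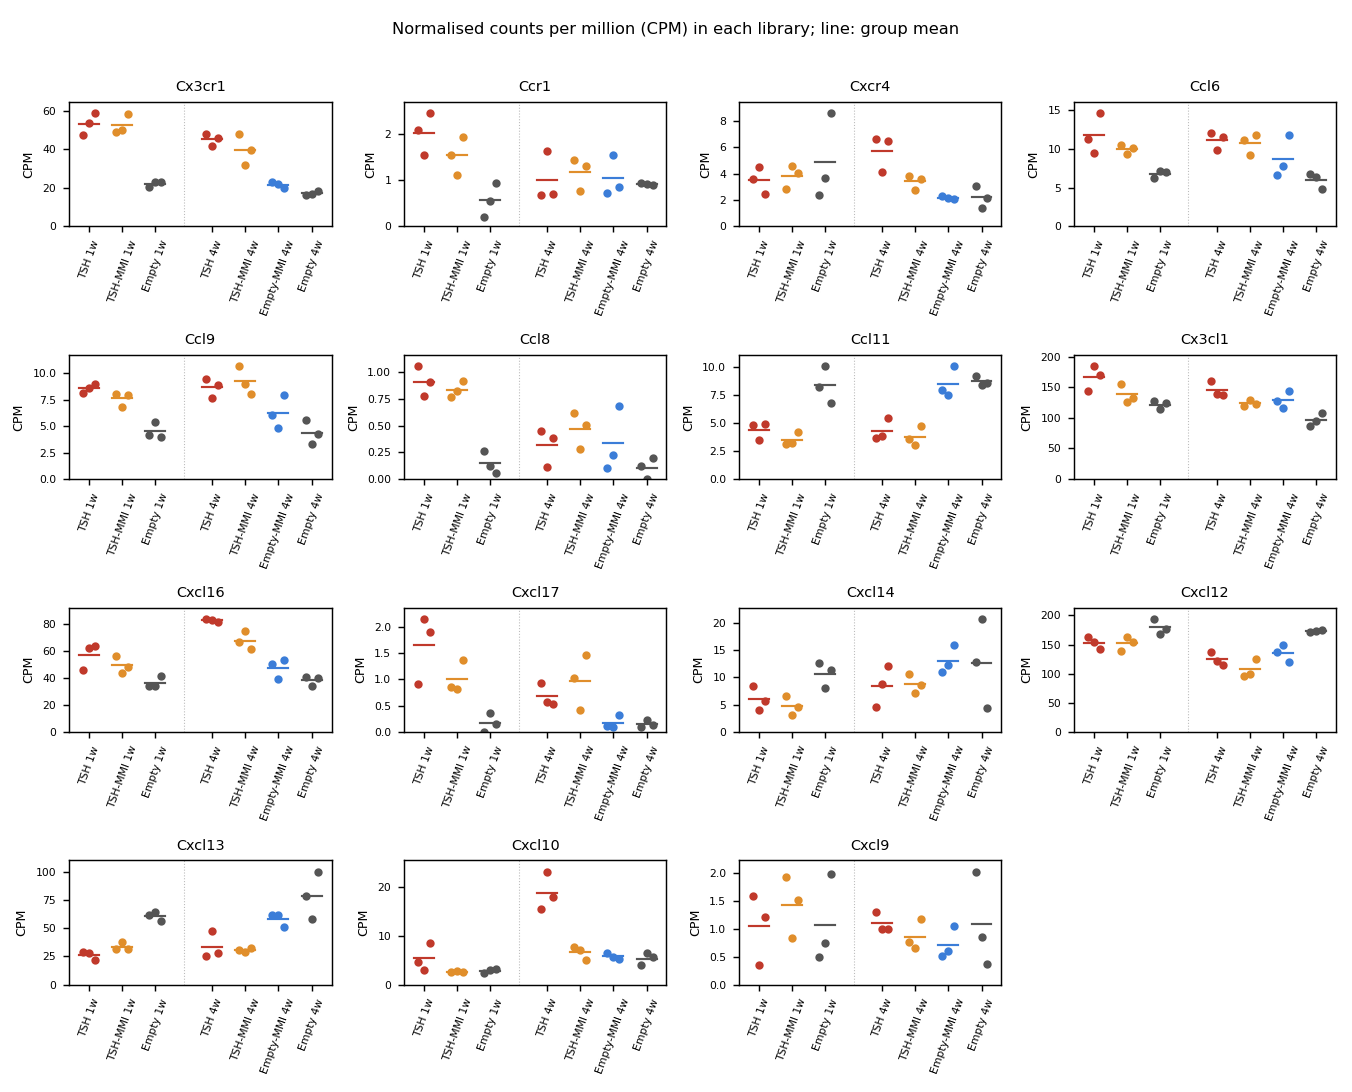
CPM of 15 members in each of the 21 libraries, coloured by group, with a line at the group mean. Cx3cr1 and Ccl11 separate all libraries with TSH vectors from all libraries without them at both times, and Cxcl10 is high in the 3 TSH libraries of 4 weeks (15.4 to 23.1 CPM).

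Both membrane-anchored ligands rose with TSH. Cx3cl1 (chromosome 8, 94772180 to 94782427), the ligand of Cx3cr1, was at 144, 184 and 171 CPM in TSH and 155, 126 and 133 CPM in TSH-MMI at 1 week, against 127, 114 and 123 CPM in Empty. At 4 weeks it was at 160, 139 and 137 CPM in TSH, 119, 128 and 123 CPM in TSH-MMI, 127, 116 and 143 CPM in Empty-MMI and 87.1, 94.7 and 107 CPM in Empty. TSH lay above Empty at both times, and at 4 weeks TSH-MMI and Empty-MMI overlapped each other. By edgeR the log2 fold change in TSH was 0.45 ± 0.10 (edgeR adjusted p = 0.00708) at 1 week and 0.60 ± 0.10 (adjusted p = 0.00229) at 4 weeks. In TSH-MMI at 4 weeks it was 0.36 ± 0.10 (adjusted p = 0.0342). That call was lost without Empty replicate 1 or 2 (adjusted p = 0.109 and 0.0904) or TSH-MMI replicate 1, 2 or 3 (0.0695, 0.0956 and 0.0654).

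Cxcl16 (chromosome 11, 70454389 to 70459984), the ligand of Cxcr6, was at 45.7, 62.3 and 63.6 CPM in TSH and 56.2, 43.9 and 48 CPM in TSH-MMI at 1 week, against 34.0, 33.8 and 41.4 CPM in Empty. It was, at 4 weeks, at 84.0, 83.5 and 81.7 CPM in TSH, 66.6, 74.9 and 61.9 CPM in TSH-MMI, 50.2, 39.3 and 53.4 CPM in Empty-MMI and 40.9, 34.4 and 40.0 CPM in Empty. The 4-week TSH libraries were nearly equal and above all others. At 1 week TSH-MMI lay above Empty (0.44 ± 0.14 on the log2 scale, edgeR adjusted p = 0.0504), and was called by DESeq2 (0.0145) and limma with a pseudocount of 1 (0.0333). On the log2 scale the fold change in TSH was 0.65 ± 0.14 (edgeR adjusted p = 0.00797) at 1 week and 1.11 ± 0.12 (adjusted p = 8.54e-05) at 4 weeks, and in TSH-MMI at 4 weeks 0.82 ± 0.12 (adjusted p = 0.000468). Exons of Cxcl16 overlap those of Zmynd15, which had 45 to 216 reads and rose in TSH at 4 weeks as well (1.03 on the log2 scale, adjusted p = 0.0152). Its receptor Cxcr6 was not called in any comparison.

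Cxcl17, a ligand of mucosal surfaces, was at 0.903, 2.15 and 1.90 CPM in TSH and 0.845, 0.821 and 1.37 CPM in TSH-MMI at 1 week, against 0, 0.364 and 0.159 CPM in Empty. At 4 weeks it was at 0.929, 0.565 and 0.530 CPM in TSH and 1.02, 0.425 and 1.47 CPM in TSH-MMI, against 0.102, 0.225 and 0.124 CPM in Empty. No library with TSH vectors fell into the Empty range, at a low level throughout. Its log2 fold change in TSH was 3.26 ± 0.74 (edgeR adjusted p = 0.00961) at 1 week and 2.12 ± 0.60 (adjusted p = 0.0303) at 4 weeks, and in TSH-MMI 2.55 ± 0.74 (adjusted p = 0.0334) and 2.67 ± 0.59 (adjusted p = 0.00806). Without Empty replicate 1 the 1-week folds were 2.65 and 1.95, and without Empty replicate 2 they were 4.33 and 3.62. The 1-week call in TSH-MMI was lost without Empty replicate 3 or TSH-MMI replicate 1, 2 or 3 (adjusted p = 0.0790, 0.0650, 0.0609 and 0.114). Leaving out the pair with thymocyte transcripts ended the 1-week calls in TSH and TSH-MMI (0.0501 and 0.117), and with only the compared groups that in TSH-MMI was lost (0.0532). The 4-week call in TSH was lost without TSH replicate 1, 2 or 3 (0.101, 0.0561 and 0.0584) or Empty replicate 1 or 3 (0.107 and 0.0723).

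The most abundant members, Cxcl13 and Cxcl12, were called lower. Cxcl13 (chromosome 5, 95956939 to 95961068) was at 29.4, 28.4 and 21.7 CPM in TSH and 31.7, 37.5 and 31.7 CPM in TSH-MMI at 1 week, against 61.8, 64.4 and 56.4 CPM in Empty. In the 4-week libraries it was at 25.4, 47.4 and 27.8 CPM in TSH, 30.8, 28.7 and 32.6 CPM in TSH-MMI, 61.7, 61.4 and 51.4 CPM in Empty-MMI and 78.5, 58.3 and 100 CPM in Empty. All libraries with TSH vectors lay below those without. Cxcl13 fell in TSH by 1.2 (SE 0.12, edgeR adjusted p = 4.43e-05) and 1.23 (SE 0.24, adjusted p = 0.00625) on the log2 scale at 1 and 4 weeks. In TSH-MMI the log2 fold change was -0.86 (SE 0.11, adjusted p = 0.000524) and -1.36 (SE 0.24, adjusted p = 0.00339). With only the compared groups in the fit, the 4-week call in TSH was lost (adjusted p = 0.0621). Its receptor Cxcr5 had at most 12 reads in a library.

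Cxcl12 (chromosome 6, 117168535 to 117181368) was at 138, 122 and 114 CPM in TSH, 96.4, 99.9 and 126 CPM in TSH-MMI, 137, 149 and 119 CPM in Empty-MMI and 172, 174 and 174 CPM in Empty at 4 weeks. Every other library of that week lay below the 3 close Empty values. The fitted log2 fold change was -0.48 (SE 0.12, edgeR adjusted p = 0.0146) in TSH and -0.69 (SE 0.12, adjusted p = 0.00147) in TSH-MMI, while Empty-MMI at -0.36 did not pass the test (adjusted p = 0.149). The call in TSH was lost without TSH replicate 2 or 3 (adjusted p = 0.0549 and 0.0745). At 1 week Cxcl12 was at 164, 154 and 142 CPM in TSH and 139, 164 and 155 CPM in TSH-MMI, against 194, 168 and 177 CPM in Empty. The groups were apart there too and did not pass edgeR's test (adjusted p = 0.0601 and 0.0608), while DESeq2 called both (0.0246 and 0.0199).

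Cxcl14, a ligand made at rest by epithelium and fibroblasts, was at 6.50, 3.08 and 4.50 CPM in TSH-MMI against 12.7, 7.97 and 11.3 CPM in Empty at 1 week. The libraries did not overlap. By edgeR the log2 fold change was -1.19 (SE 0.34, edgeR adjusted p = 0.0357). The call was lost without Empty replicate 1 or 3 (adjusted p = 0.106 and 0.0831), TSH-MMI replicate 2 or 3 (0.0814 and 0.114), or the pair with thymocyte transcripts (0.152), and with no filter on low counts (0.0614).

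In TSH Cxcl14 was at 8.41, 3.97 and 5.69 CPM at 1 week, of which the highest overlapped Empty. That change was not called by edgeR (adjusted p = 0.105) and was called lower by DESeq2 (0.0267), with the replicate number as a block (0.00193) and without TSH replicate 1 (0.0365). At 4 weeks it was at 4.52, 8.79 and 12.2 CPM in TSH and 10.6, 7.22 and 8.63 CPM in TSH-MMI, against 12.8, 20.7 and 4.35 CPM in Empty, and the wide Empty range took in every one of these. Markers of C cells, the calcitonin cells of the thyroid, were also followed. They summed to 1006 to 4245 CPM in TSH and 1673 to 3103 CPM in TSH-MMI at 1 week, against 4676 to 10439 CPM in Empty. At 4 weeks they summed to 565, 4645 and 5410 CPM in TSH and 3438 to 4968 CPM in TSH-MMI, against 10451, 13289 and 1258 CPM in Empty, lowest in the Empty library that was lowest for Cxcl14. Parathyroid markers summed to 483 to 1614 CPM in TSH-MMI at 1 week against 2087 to 3687 CPM in Empty, and to 4146, 6493 and 127 CPM in Empty at 4 weeks. Of 7 tested C cell markers 5 were lower and 1 higher in TSH at 1 week, and 5 lower and 0 higher at 4 weeks. In TSH-MMI 2 were lower and 1 higher at 1 week, and 5 lower and 0 higher at 4 weeks. The part of C cells and parathyroid tissue in the values of Cxcl14 was not tested.

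Ccl27a, a skin ligand of Ccr10, was at 2.48, 3.37 and 2.36 CPM in TSH against 3.08, 3.42 and 2.59 CPM in Empty at 1 week. It was at 4.13, 3.98 and 3.34 CPM in TSH against 5.02, 3.5 and 3.78 CPM in Empty at 4 weeks. The groups overlapped at both times, and the near-identical Ccl27b can share its reads. Exons of Ccl27a also overlap those of Il11ra1 on the other strand, which had 983 to 2386 reads. Il11ra1 fell in TSH at 1 week (-0.36 on the log2 scale, edgeR adjusted p = 0.00679). Whether reads were counted by strand is not known, so the level of Ccl27a is uncertain.

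Skeletal muscle RNA differed between the groups of 4 weeks, as given above, and with a muscle score as a covariate several 4-week calls were lost. These were Ccl11 in TSH and TSH-MMI (adjusted p = 0.0539 and 0.0919), Cxcl12 (0.113 and 0.0695), Ccl6 (0.0793 and 0.251), Ccl9 (0.0888 and 0.222) and Cxcl17 (0.151 and 0.143), and in TSH-MMI also Cxcl13 (0.149) and Cx3cl1 (0.482). On the log2 scale the fold changes kept their direction, from -0.85 and -0.97 for Ccl11 to 1.81 and 2.30 for Cxcl17. With the covariate 6 members were higher and 1 lower in TSH, and 3 higher and 0 lower in TSH-MMI. Over all 17355 genes the covariate took the TSH calls from 1478 higher and 974 lower to 756 and 294. For TSH-MMI they went from 1522 higher and 1036 lower to 315 and 92. Muscle markers did not separate the groups at 1 week, at 221 to 4966 CPM in TSH and 95.9 to 911 CPM in TSH-MMI against 25.1 to 1923 CPM in Empty. Of the genes listed here, Cxcl13, Ccl11, Ccl6, Ccl9 and Cxcl17 were called by edgeR in TSH and TSH-MMI at 1 week, Cx3cl1 in TSH alone and Cxcl12 in neither. These are other libraries, and their calls do not show what set the 4-week values. At 4 weeks every Empty library lay above all others in summed muscle markers. The covariate thus cannot be told apart from the comparison with Empty. Neither a lost nor a kept call shows the part of muscle RNA in the 4-week changes, which was not tested.

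Cxcl10 (chromosome 5, 92346638 to 92348889), the interferon-induced ligand of Cxcr3, stood out at 4 weeks. It was at 15.4, 23.1 and 17.9 CPM in TSH, 7.62, 7.11 and 5.11 CPM in TSH-MMI, 6.48, 5.59 and 5.29 CPM in Empty-MMI and 3.92, 6.37 and 5.71 CPM in Empty. The TSH libraries were above all others, and the other groups overlapped one another. Cxcl10 rose in TSH by 1.82 ± 0.21 on the log2 scale over Empty (edgeR adjusted p = 0.000144), and its change in TSH-MMI over Empty was 0.31 ± 0.21 (adjusted p = 0.363). At 1 week it was at 4.54, 2.97 and 8.56 CPM in TSH, 2.68, 2.81 and 2.51 CPM in TSH-MMI and 2.40, 3.03 and 3.17 CPM in Empty. The TSH libraries of 1 week overlapped Empty and did not pass edgeR's test (adjusted p = 0.0614). DESeq2 called Cxcl10 higher in TSH at 1 week (0.90 on the log2 scale, adjusted p = 0.0333), as did edgeR without TSH replicate 2 (1.19, adjusted p = 0.0107). The change of its TSH effect between the weeks was 0.91 ± 0.40 (adjusted p = 0.265).

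TSH-MMI and TSH were compared directly. At 4 weeks 1 of 37 tested members was lower in TSH-MMI, Cxcl10, which was also the only lower call among all 17355 genes (0.00576%), and none was higher (0.0115% of all genes). At an unadjusted p under 0.05 there were 1 higher and 4 lower (13.5% of the tested members, against 8.29% of all genes), and DESeq2 and limma called 0 higher. Cxcl10 was at 7.62, 7.11 and 5.11 CPM in TSH-MMI against 15.4, 23.1 and 17.9 CPM in TSH, with no overlap. Its log2 fold change was -1.51 (SE 0.20, edgeR adjusted p = 0.0308). The call was lost without TSH replicate 1, 2 or 3 (adjusted p = 0.0734, 0.175 and 0.137) or TSH-MMI replicate 1 or 2 (0.141 and 0.0909), with only the compared groups (0.0793), with the muscle covariate (0.0997), and by limma with a pseudocount of 0.1 (0.0616) or without a filter (0.179). The log2 fold change lay between -1.2 and -1.64 in these. At 1 week no member was called in either direction, where 0% of all 16956 genes were higher and 0.0177% lower. There 1 member was higher and 2 were lower at an unadjusted p under 0.05 (8.33% of the tested members, against 8.62% of all genes), and DESeq2 and limma called 0. The antisense neighbour Art3, whose exons overlap Cxcl10 on the other strand, fell in TSH at 4 weeks (-1.12 on the log2 scale, adjusted p = 0.00518), and the sources used here do not say whether reads were counted by strand.

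Cxcl9, the neighbour of Cxcl10, was at 1.31, 0.994 and 0.998 CPM in TSH against 2.03, 0.861 and 0.373 CPM in Empty at 4 weeks. Its groups overlapped fully (log2 fold change 0.00 ± 0.56, edgeR adjusted p = 1.00). Their receptor Cxcr3 was at 0.961, 0.746 and 1.02 CPM in TSH against 1.24, 0.697 and 0.348 CPM in Empty, and overlapped as well (adjusted p = 0.746). T cell markers summed to 10.2 to 11.4 CPM in TSH and 7.48 to 10.1 CPM in TSH-MMI at 4 weeks, against 7.18 to 8.98 CPM in Empty.

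MMI without TSH was compared with Empty at 4 weeks. In Empty-MMI 1 of 37 tested members was lower, where 1.07% of all genes were, and none was higher, where 0.57% were. At an unadjusted p under 0.05 there were 6 lower and 7 higher, which is 35.1% of the tested members against 15.1% of all genes, and DESeq2 called 2 lower, Ccl21a and Ccl21b, and Cx3cl1 higher (adjusted p = 0.00599). The called gene was Ccl21b, a lymphatic ligand of Ccr7, at 1.1, 1.59 and 1.19 CPM in Empty-MMI against 3.51, 2.73 and 2.09 CPM in Empty. Its near-identical copy Ccl21a was at 5.48, 8.59 and 5.70 CPM in Empty-MMI against 15.4, 11.9 and 8.82 CPM in Empty. Neither gene's groups overlapped, and since the copies can share reads their separate values are uncertain. The log2 fold change was -1.09 (SE 0.23, edgeR adjusted p = 0.0339) for Ccl21b and -0.87 (SE 0.24, adjusted p = 0.0865) for Ccl21a. The call was lost without Empty replicate 1 or 2 (adjusted p = 0.121 and 0.0521) or Empty-MMI replicate 1 or 3 (0.143 and 0.122), with only the compared groups (0.134), with the replicate number as a block (0.0774) or with the muscle covariate (0.449).

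With MMI in both arms, TSH-MMI against Empty-MMI, 5 of 37 tested members were higher, where 3.03% of all genes were, and 1 was lower, where 1.21% were. Cx3cr1 rose by 0.87 ± 0.13 on the log2 scale (edgeR adjusted p = 0.00249), with every TSH-MMI library above every Empty-MMI library. Cxcl17 was at 1.02, 0.425 and 1.47 CPM in TSH-MMI against 0.108, 0.0828 and 0.317 CPM in Empty-MMI. Ccl21b was at 3.11, 2.38 and 2.97 CPM in TSH-MMI against 1.1, 1.59 and 1.19 CPM in Empty-MMI. Neither pair of groups overlapped. By edgeR, Cxcl16 (0.51 ± 0.12, adjusted p = 0.0240), Cxcl17 (2.52 ± 0.59, adjusted p = 0.0285) and Ccl21b (1.11 ± 0.23, adjusted p = 0.0167) were also higher. The TSH-MMI values of Ccl21b lay within the range of the Empty libraries given above, and Ccl21b was not called in TSH-MMI over Empty. Its lower call in Empty-MMI against Empty rests on the same Empty-MMI libraries, so these calls of Ccl21b are not independent. Ccl11 fell by 1.16 (SE 0.20, adjusted p = 0.00491). Ccl6 and Ccl9, called over Empty in TSH-MMI, were not called over Empty-MMI. Without Empty-MMI replicate 1 or TSH-MMI replicate 1 only 1 member was higher, and without Empty-MMI replicate 2 or TSH-MMI replicate 3 there were 3. Without these libraries in turn, the edgeR adjusted p of Cxcl17 was 0.122, 0.102, 0.128 and 0.104. Cxcl16 was lost without Empty-MMI replicate 1 or 2 or TSH-MMI replicate 1 or 2 (0.0580, 0.0912, 0.0768 and 0.0853), and Ccl21b without Empty-MMI replicate 1 or 3 or TSH-MMI replicate 1 (0.0748, 0.0501 and 0.0746). Without Empty-MMI replicate 3 the log2 fold change of Cxcl17 was 3.34. Cx3cr1 and Ccl11 were called without each library. Cxcl13 lay apart as well, at 30.8, 28.7 and 32.6 CPM in TSH-MMI against 61.7, 61.4 and 51.4 CPM in Empty-MMI, and missed the threshold by edgeR (adjusted p = 0.0565). It was called lower by DESeq2 (adjusted p = 0.000959), limma with a pseudocount of 1 or 0.1 (0.0420 and 0.0418) and edgeR with only the compared groups (0.00213).

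Differences between the weeks were tested directly. No member's TSH effect differed between 4 weeks and 1 week, where 0.418% of 17715 genes had a higher and 0.931% a lower effect at 4 weeks by edgeR. At an unadjusted p under 0.05 there were 6 higher and 3 lower (23.7% of the tested members, against 15.9% of all genes), DESeq2 called 1 higher and limma 1 lower. The DESeq2 call was Cxcr4 (adjusted p = 0.0186), for which edgeR gave 1.87 ± 0.52 (adjusted p = 0.0831). Without Empty replicate 1 of 1 week edgeR called it (adjusted p = 0.0377), and without Empty replicate 3, the library with thymocyte transcripts, the difference was 1.19 (adjusted p = 0.157). The limma call was Ccr1, for which edgeR gave -1.72 ± 0.61 (adjusted p = 0.170). For TSH-MMI no member differed either (0.00564% and 0.0113% of all genes), with 3 higher and 1 lower at an unadjusted p under 0.05 (10.5% of the tested members, against 8.89% of all genes) and 0 by DESeq2 and limma.

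Genes that work with chemokines were followed in 4 lists. Beside the counts of these lists and of the markers below stand the shares over all genes called. In TSH 14.8% were higher and 9.34% lower at 1 week, and 8.52% and 5.61% at 4 weeks. In TSH-MMI the shares were 13.6% and 7.97% at 1 week, and 8.77% and 5.97% at 4 weeks. No list was tested as a set. The first held 10 genes: atypical receptors, which scavenge or present ligands without the usual signal, platelet chemokines and some related genes, Cmklr1 among them. Of these 10 genes, 2 were higher and 0 lower in TSH at each time. Ackr3, the scavenger of Cxcl12, rose by 0.78 ± 0.10 on the log2 scale at 1 week (edgeR adjusted p = 0.000277) and by 0.60 ± 0.09 at 4 weeks (adjusted p = 0.000907). Cmklr1, the chemerin receptor, rose by 0.57 ± 0.13 (adjusted p = 0.00812) and 0.86 ± 0.17 (adjusted p = 0.00392). In TSH-MMI 1 was higher at each time, Ackr3, by 0.75 ± 0.10 and 0.56 ± 0.09. The list's median log2 fold change in TSH was 0.34 and 0.29, against -0.0047 and -0.03 over all genes.

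Of the proteases that shed or trim chemokines and the proteoglycans that hold them, 8 of 13 were higher and 0 lower in TSH at 1 week, and 4 higher and 1 lower at 4 weeks. The syndecan Sdc3 rose by 0.91 ± 0.09 on the log2 scale (edgeR adjusted p = 4.72e-05) at 1 week. Adam10 and Adam17, which cut Cx3cl1 and Cxcl16 from the membrane, rose by 0.66 ± 0.08 (adjusted p = 0.000169) and 0.49 ± 0.08 (adjusted p = 0.000934). At 4 weeks Sdc3 rose by 1.05 ± 0.10 (adjusted p = 4.24e-05) and Hspg2, perlecan, by 0.99 ± 0.18 (adjusted p = 0.00280), while the glypican Gpc1 fell by 1.03 (SE 0.24, adjusted p = 0.0172). In TSH-MMI 6 were higher and 1 lower at 1 week and 5 higher and 1 lower at 4 weeks. Gpc1 was also lower in Empty-MMI than in Empty (-1.45, SE 0.25, adjusted p = 0.0238).

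Of the receptor signalling genes, 5 were higher and 1 lower of 23 tested in TSH at 1 week, and 10 higher and 0 lower of 24 at 4 weeks. The Src-family kinase Lyn (0.64 ± 0.10, edgeR adjusted p = 0.000885) and the G protein subunit Gnai2 (0.36 ± 0.07, adjusted p = 0.00230) were among those that rose at 1 week. At 4 weeks the lipid kinase subunit Pik3cg (0.97 ± 0.17, edgeR adjusted p = 0.00228) and the leukocyte GTPase Rac2 (0.85 ± 0.16, adjusted p = 0.00282) did so. In TSH-MMI 5 were higher and 1 lower at 1 week, and 10 higher and 0 lower at 4 weeks. The single lower gene at 1 week was the arrestin Arrb1 in both.

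Of the cytokines and factors that induce chemokines, 5 of 18 tested were higher and 1 lower in TSH at 1 week, and 5 of 19 higher and 0 lower at 4 weeks. The TNF receptor Tnfrsf1b rose by 0.79 ± 0.10 on the log2 scale at 1 week (edgeR adjusted p = 0.000286) and 1.09 ± 0.13 at 4 weeks (adjusted p = 0.000219). At 4 weeks the interferon-responsive factors Irf7 (0.90 ± 0.17, adjusted p = 0.00380) and Irf1 (0.47 ± 0.10, adjusted p = 0.00577) rose in TSH. They rose in TSH-MMI too, by 0.73 ± 0.17 (adjusted p = 0.0118) and 0.47 ± 0.10 (adjusted p = 0.00528), where Cxcl10 was not called over Empty. In TSH-MMI 3 were higher and 1 lower at 1 week and 4 higher and 0 lower at 4 weeks.

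Markers of macrophages, among the cells that carry these genes, moved with the groups. Macrophage markers summed to 714 to 757 CPM in TSH and 601 to 685 CPM in TSH-MMI at 1 week, against 424 to 429 CPM in Empty. At 4 weeks the sums were 584 to 637 CPM in TSH, 523 to 668 CPM in TSH-MMI, 361 to 472 CPM in Empty-MMI and 274 to 486 CPM in Empty. The libraries with TSH vectors lay above those without. Of the 12 macrophage markers 10 were higher in TSH at 1 week and 9 at 4 weeks, with medians of 1.12 and 1.07 on the log2 scale, beside which stand 1.26 and 1.39 for Cx3cr1. In TSH-MMI 10 and 9 were higher. The part of these cells in the changes of Cx3cr1, Ccr1, Ccl6 and Ccl9 was not tested.

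Stromal and vascular markers moved as well. Fibroblast markers summed to 2421 to 2729 CPM in TSH and 1843 to 2137 CPM in TSH-MMI at 1 week, against 796 to 1004 CPM in Empty, and to 932 to 1115 and 1076 to 1355 CPM against 755 to 826 CPM at 4 weeks. In Empty-MMI they summed to 815 to 970 CPM, which overlapped TSH of that week. There 2 of 8 were higher than in Empty, where 0.57% of all genes were. Blood endothelium markers summed to 1564 to 1721 CPM in TSH and 1376 to 1549 CPM in TSH-MMI at 1 week, against 913 to 1146 CPM in Empty, and 8 of 8 were higher in TSH at each time. Of 8 fibroblast markers 5 were higher over Empty in TSH and TSH-MMI at each time. In TSH-MMI at 1 week and in TSH at 4 weeks 1 was lower. Neutrophil markers stayed at or below 0.878 CPM in sum in all libraries. Dendritic cell markers summed to 31.0 to 32.0 CPM in TSH-MMI against 35.0 to 39.9 CPM in Empty at 1 week, where Xcr1 was lower. Of these markers 2 of 7 were lower there. In TSH at 1 week, where Xcr1 was not called, they summed to 31.5 to 33.8 CPM and 1 of 7 was lower. At 4 weeks TSH lay above Empty, at 36.85 to 44.3 against 33.8 to 36.3 CPM, and TSH-MMI overlapped Empty at 33.8 to 40.0 CPM. The part of these cells in the members' changes was not tested.

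**Figure D4:**
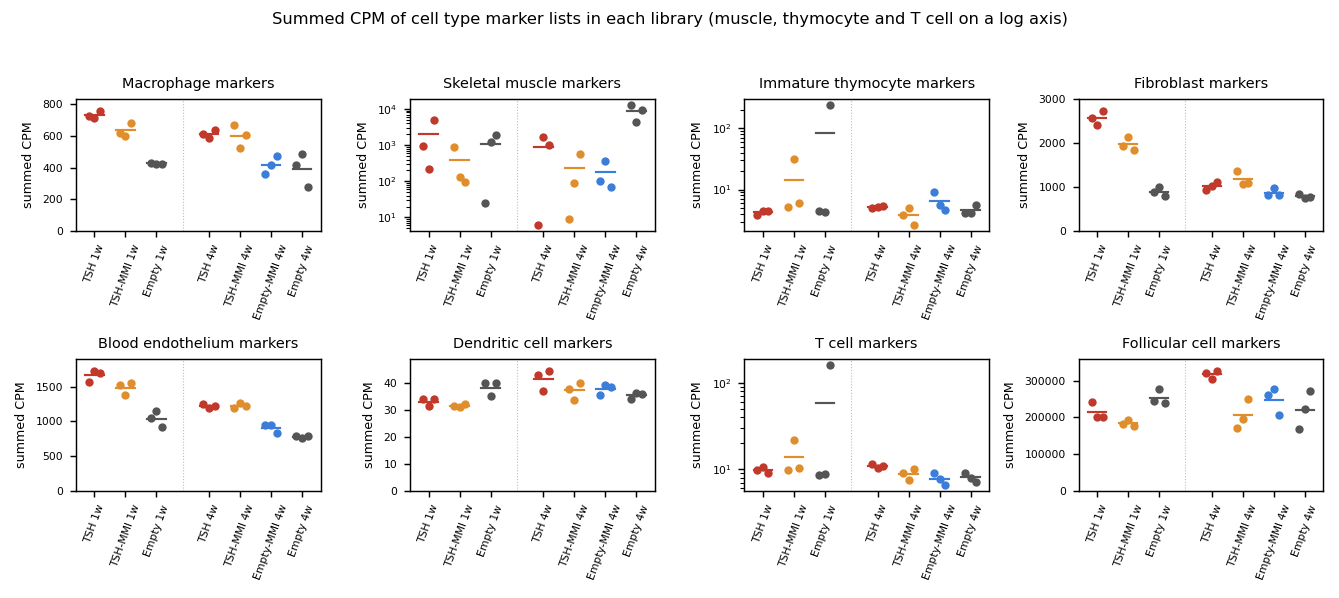
Summed CPM of marker lists of 8 cell types in each library, coloured by group, with a line at the group mean and log axes for muscle, thymocytes and T cells. Macrophage, fibroblast and blood endothelium sums are higher in TSH and TSH-MMI than in Empty, muscle is highest in Empty at 4 weeks, and thymocyte and T cell sums peak in Empty replicate 3 at 1 week.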

How the data were processed

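RNA of 21 thyroid libraries, grouped by the labels, was sequenced after a stranded mRNA kit, as the labels' protocols state. Tools in the submitters' processing notes are HISAT2 2.1.0, StringTie 2.1.3b, Trimmomatic 0.38 and FastQC 0.11.7, with genome build mm10. Annotation and strand use in counting were not found there. Each week's deposited table gives read counts, FPKM and TPM for each gene in each library, per the file headers. The authors' FPKM values served for levels, and the deposited TPM values were not used. Library pairs within groups had chi-square values of at least 11.7 per degree of freedom, so none was a duplicate.

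The test was edgeR 4.0.16 on counts, under R 4.3.3 (filterByExpr, TMM scaling, robust quasi-likelihood F test, Benjamini-Hochberg adjustment over all tested genes). The libraries of each week were fitted together (9 and 12), and all 21 for changes between weeks. SE is the absolute log2 fold change over the square root of F. CPM is TMM-normalised within a week. Positions are RefSeq's for GRCm38.p6, matched by gene ID for 55 of 55 members, and promoter sequences are RefSeq's. Exons of 8 members overlap another gene's. Ccl21a and Ccl21b, Ccl27a and Ccl27b, and Ccl19 with its pseudogenes can share reads.

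Values by library are given for the 10 members highest by FPKM in Empty and those called against Empty. For several of these some groups or 1 of the weeks are left out. Of each pathway list the called genes with the smallest p are named, in part for space. Counts and medians cover all members and list genes, of which 1 member and 1 list gene are not reported here by name or drawn. The members and lists were chosen with earlier results of these data known. Alternatives were DESeq2 1.42.0, limma 3.58.1 on log2(FPKM + 1) or + 0.1, RLE factors, no filter, a fit of the compared groups alone, a replicate block, a muscle score as covariate, and libraries left out. The code was tested on simulated data.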

Additional observations from a re-analysis of the deposited data

How the results depend on the processing

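Of 53 calls of members, counted per comparison, 28 were kept at each setting that gave a value, 25 were lost at 1 or more and 0 reversed. DESeq2 lost 0 of the 52 it tested, RLE factors 0, limma with a pseudocount of 1 or 0.1 lost 1 each, limma without a filter 10, only the compared groups 7, no filter 1 and the muscle covariate 15. Another 30 pairs of member and comparison were called only under an alternative, 13 of them by DESeq2 and 6 only with 1 library left out. Depth limits the members of low count.

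Counts of called members moved by over 1.5 times as follows. With DESeq2 there were 4 lower in TSH at 1 week, 1 higher and 2 lower in Empty-MMI, 2 lower in TSH-MMI against Empty-MMI, and 1 with a higher TSH effect at 4 weeks. With the muscle covariate there were 1 lower in TSH, 3 higher and 0 lower in TSH-MMI, 0 lower in Empty-MMI and 0 lower in TSH-MMI against TSH, all at 4 weeks. Calls over all genes fell with this covariate too. With limma without a filter there were 0 lower in Empty-MMI, 0 lower in TSH-MMI against TSH and 3 higher in TSH-MMI against Empty-MMI. With limma and a pseudocount of 1 there were 2 lower in TSH-MMI against Empty-MMI and 1 with a lower TSH effect at 4 weeks, and with 0.1 there were 0 lower in TSH-MMI against TSH and 2 lower in TSH-MMI against Empty-MMI. With only the compared groups there were 0 lower in Empty-MMI, 0 lower in TSH-MMI against TSH and 2 lower in TSH-MMI against Empty-MMI. The cause was not tested.

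With 1 library left out, lower members ranged from 2 to 4 in TSH at 1 week, from 0 to 2 in Empty-MMI, from 0 to 1 in TSH-MMI against TSH and from 1 to 2 in TSH-MMI against Empty-MMI at 4 weeks. Higher members ranged from 4 to 9 in TSH-MMI at 1 week, from 1 to 4 in TSH-MMI against Empty-MMI and from 0 to 1 for the change of the TSH effect.

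The labels do not say whether replicate numbers mark paired samples. At 1 week deviations of same-numbered libraries correlated at -0.246 to 0.267, with 1 of 9 pairs over 0.1. At 4 weeks the correlations were -0.251 to 0.256, with 4 of 18 over 0.1. With 3 libraries a group these values cannot exclude a shared litter or day. With the replicate block 51 of 53 calls were kept. Ccl4 in TSH at 1 week (adjusted p = 0.0527) and Ccl21b in Empty-MMI (0.0774) were lost, which left 0 lower members in Empty-MMI.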

Other observations

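Some members, chosen after their values were seen, differed in level without passing edgeR's test with all libraries of a week. Ccl28, an epithelial ligand of Ccr10, was at 1.98, 2.69 and 2.61 CPM in TSH-MMI at 1 week, against 1.61, 1.33 and 1.51 CPM in Empty, with no overlap (edgeR adjusted p = 0.0704). It was called by limma with a pseudocount of 1 or 0.1 (adjusted p = 0.0363 and 0.0420). Ccl3, a ligand of Ccr1, was at 0.64, 0.565 and 0.795 CPM in TSH at 4 weeks, against 0.366, 0 and 0.149 CPM in Empty, again with no overlap and not called by edgeR (adjusted p = 0.155). It was called by limma with a pseudocount of 1 or 0.1 (adjusted p = 0.0109 and 0.0441) and without a filter (0.0338). Ccl21a and Ccl21b, which bind Ccr7, stood at 20.3, 17.6 and 21.3 CPM and at 4.41, 4.12 and 5.45 CPM in TSH at 1 week. The matching Empty values were 8.2, 10.8 and 28.7 CPM and 2.21, 2.67 and 4.34 CPM, where the highest of each is the library with thymocyte transcripts. Without that library edgeR called Ccl21a and Ccl21b higher at 1 week in TSH (1.04 and 0.93 on the log2 scale, adjusted p = 0.00278 and 0.0177) and in TSH-MMI (0.92 and 0.77, adjusted p = 0.00705 and 0.0437). Without both libraries with thymocyte transcripts the adjusted p in TSH was 0.000691 and 0.00833, and Ccl21a was called in TSH-MMI (0.00889). In all libraries the adjusted p was 0.679 and 0.123 in TSH. At 1 week lymphatic endothelium markers summed to 70.8 to 84.4 CPM in TSH and 69.3 to 81.7 CPM in TSH-MMI. In Empty they summed to 56.9 to 63.9 CPM. Of 5 such markers 2 were higher and 1 lower in TSH, and likewise in TSH-MMI. The part of lymphatic endothelium in the values of Ccl21a and Ccl21b was not tested.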
